A study of Mus musculus with 12 samples.

Results

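Matrix metalloproteinases (MMPs) are zinc-dependent proteases that cut collagens, elastin, laminins and other proteins around cells, and the tissue inhibitors of metalloproteinases (TIMPs) bind and block them. The transcripts described here are those of 7 metalloproteinase genes (Mmp2, Mmp8, Mmp9, Mmp12, Mmp13, Mmp14 and Mmp19) and 3 inhibitor genes (Timp1, Timp2 and Timp3), chosen by symbol. All 10 were found among the 54532 genes of the count table, and all 10 passed the filter on low counts that left 15014 genes. Most metalloproteinases are secreted as inactive proenzymes. The product of Mmp14, a protease anchored in the cell membrane, activates the proenzyme made from Mmp2, and TIMP2 serves as the bridge that docks it there. In gliomas, microglia and macrophages are known as sources of metalloproteinases, and their membrane protease has been tied to tumour cell invasion.

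The samples were tumour-associated macrophages (TAMs) from 6 glioma-bearing mice of the genotype given as Ntv-a_Ink4a/Arf_KO. Every mouse, 4 labelled male and 2 female, had received rhodamine-labelled perfluoro-crown-ether nanoparticles (PFCE-NP) into a vein 24 hours earlier, so no library comes from an animal without particles. From each tumour, more than 2000 cells carrying CD45 and CD11b were sorted as rhodamine-positive (6 libraries, mice 1 to 6) and as rhodamine-negative (6 libraries, the same mice). The gate was described as Ly6C-negative, with that marker listed 2 times. Ages of the animals are not given in the sources used here. The comparison asks how TAMs that took up particles differ in expression from TAMs of the same tumour that did not.

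The libraries held 13073189 to 17379314 counts. Levels are given as CPM, a gene's count scaled to the library's size after TMM correction (trimmed mean of M values). A log2 fold change is rhodamine-positive minus rhodamine-negative, fitted with edgeR's quasi-likelihood test in which each mouse was a block. Its p-value was adjusted over all 15014 genes by the method of Benjamini and Hochberg, and 0.05 was the threshold. Of the genes behind the gate, Ptprc (CD45) differed by -0.56 (edgeR, adjusted p = 0.000754), Itgam (CD11b) by 0.11 (adjusted p = 0.482), and Ly6c2 still had 553 counts over all libraries (-1.25, adjusted p = 0.0649). Macrophage genes filled both sorts, with a summed level of 9 markers of 26110 to 30760 CPM in rhodamine-positive and 10460 to 24740 CPM in rhodamine-negative libraries. This sum was higher in the rhodamine-positive sort of 6 of 6 mice, with a mean log2 ratio of 0.60. C1qb was its highest gene, with means of 10470 CPM in rhodamine-positive and 6931 CPM in rhodamine-negative libraries. Of the 9 genes, 6 were called higher and 1, Ptprc, lower, while Itgam and Mertk did not pass. Several other marker lists were lower in the rhodamine-positive library of all 6 mice. The macrophage list and each of these had an exact two-sided sign-flip p = 0.0312, the smallest that 6 mice allow. These were dendritic cell markers (7 genes, 145 to 264 against 393 to 1457 CPM summed, Ccr7 highest) and monocyte markers (5 genes, 44.1 to 110.0 against 233 to 591 CPM, Ccr2 highest). The same held for basophil and mast cell markers (7 genes, 0.187 to 22.0 against 6.68 to 443 CPM, Hdc highest), T, NK and B cell markers (10 genes, 3.10 to 17 against 53.3 to 107 CPM, Klrd1 highest) and glioma and oligodendrocyte lineage markers (8 genes, 43.4 to 132 against 95.2 to 148 CPM, Mbp highest). Fibroblast and pericyte markers (8 genes, Col3a1 highest) summed to 0.499 to 25.8 against 1.43 to 28.7 CPM, endothelial markers (8 genes, Flt1 highest) to 34.8 to 105 against 30.1 to 87.1 CPM, and astrocyte markers (5 genes, Slc1a3 highest) to 38.9 to 82.0 against 33.8 to 92.5 CPM. In that order, these sums were higher in the rhodamine-positive sort of 2, 3 and 1 of 6 mice. Neutrophil markers (11 genes, Csf3r highest) summed to 248 to 416 against 221 to 391 CPM and were higher in 4 of 6. Most of this sum was Csf3r, with means of 318 and 289 CPM, and the markers other than Csf3r are given with Mmp9 below. No gene of these lists was at 0 in all 12 libraries. How far these other transcripts enter the results below was not tested, and in sorted bulk RNA fewer cells of a type and less RNA per cell cannot be told apart.

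Of the 10 genes, Mmp2, Mmp8 and Timp2 were higher in rhodamine-positive TAMs, Mmp9 and Timp1 were lower, and Mmp12, Mmp13, Mmp14, Mmp19 and Timp3 did not pass the test. Across all genes tested, 13.0% were called higher and 13.2% lower. The ranges of the 2 groups overlapped for every one of the 10 genes, whereas they did not overlap for 8.81% of all genes tested. The median log2 fold change of the 10 genes was -0.04, against -0.02 over all genes tested. The shares called among the 10 were 3 of 10 higher and 2 of 10 lower.

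**Figure D1:**
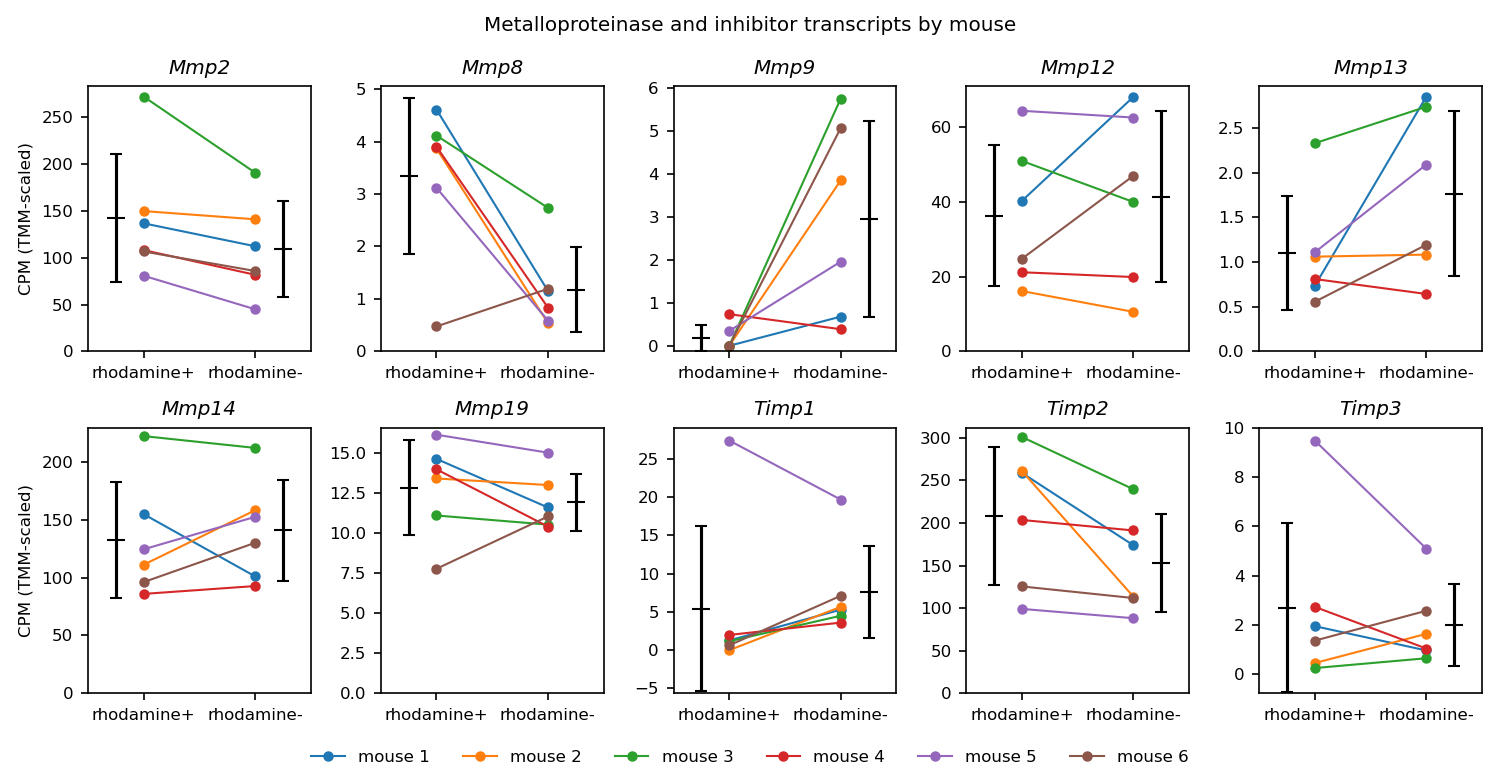
TMM-scaled CPM of the 10 genes, with rhodamine-positive sorts on the left and rhodamine-negative sorts on the right of each panel; each line joins the 2 sorts of 1 mouse, and black marks give the mean and SD of 6 libraries. Mmp2 and Timp2 were higher in the rhodamine-positive sort of all 6 mice, and Mmp9 was lower in 5 of 6.

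**Figure D2:**
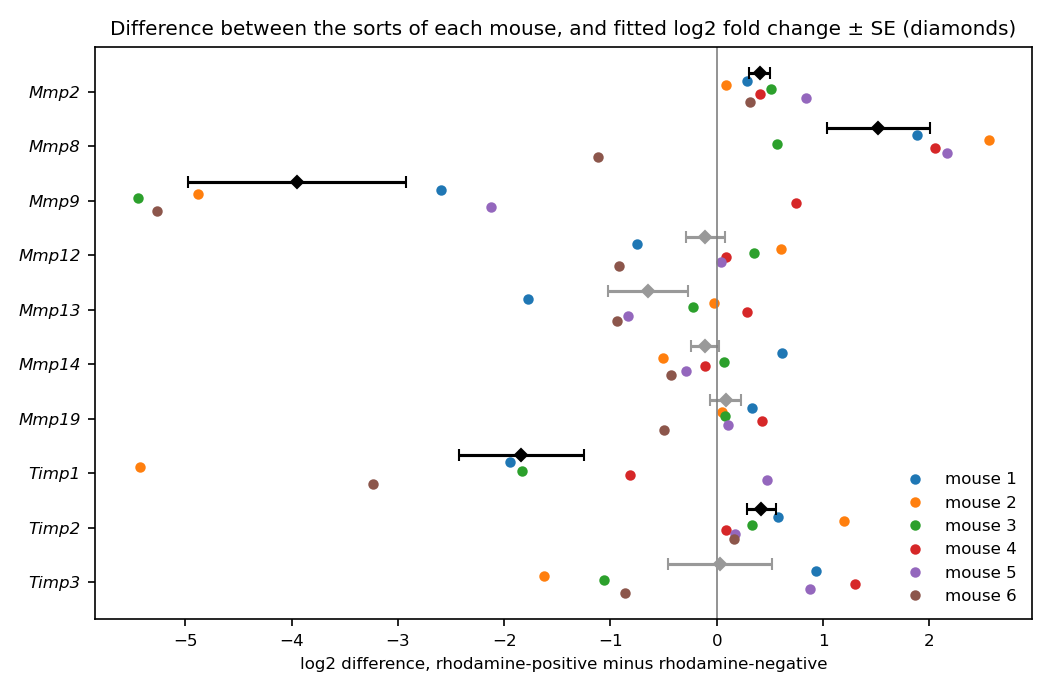
Difference between the 2 sorts of each mouse in log2 CPM (points) and the fitted log2 fold change with its SE (diamonds, black where the adjusted p passed 0.05 and grey where it did not). The points of Mmp2 and Timp2 all lie right of 0, and those of Mmp9 and Timp1 lie left of 0 in 5 of 6 mice.

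By mean CPM per kilobase of exon, the order of the levels was the same in both sorts for the 6 most abundant genes. Timp2 averaged 53.4 ± 20.7 CPM per kb in rhodamine-positive and 39.3 ± 14.9 CPM per kb in rhodamine-negative libraries (SD, n = 6 each), Mmp2 42.3 ± 20.2 and 32.5 ± 15.2 CPM per kb, and Mmp14 22.2 ± 8.40 and 23.7 ± 7.32 CPM per kb. These 3 genes, the parts of the Mmp2 activation complex, stood in an order in which no neighbouring pair among them differed by more than the larger SD. The step from Mmp14 down to Timp1 did exceed it, with Timp1 at 6.09 ± 12.1 and 8.60 ± 6.76 CPM per kb. The place of Timp1 in the rhodamine-positive sort rests on mouse 5, at 30.8 CPM per kb. Every other rhodamine-positive library had 0 to 2.24 CPM per kb of Timp1, below both Mmp12 and Mmp19 of the same library. Mmp12 followed with 5.02 ± 2.61 and 5.72 ± 3.16 CPM per kb and Mmp19 with 3.64 ± 0.844 and 3.38 ± 0.504 CPM per kb, within the SD of each other. The remaining 4 genes lay below Mmp19 by more than the larger SD, and their order differed between the sorts. In rhodamine-positive libraries it was Mmp8 (1.38 CPM per kb), Mmp13 (0.411), Timp3 (0.331) and Mmp9 (0.0510), where the step from Mmp8 to Mmp13 exceeded the larger SD and the next steps did not. In rhodamine-negative libraries it was Mmp9 (0.834 CPM per kb), Mmp13 (0.661), Mmp8 (0.484) and Timp3 (0.243), and no step among them exceeded the larger SD.

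Mmp2 and Mmp14 together made up 74.6 to 90.3% of the summed CPM per kb of the 7 metalloproteinases in rhodamine-positive and 72.9 to 90.9% in rhodamine-negative libraries. The share of Mmp2 alone was 39.9 to 62.5% in rhodamine-positive and 25.03 to 55.6% in rhodamine-negative libraries, and it was higher in the rhodamine-positive sort of all 6 mice. Timp2 made up a median of 97.4% of the inhibitor transcripts in rhodamine-positive and 84.8% in rhodamine-negative libraries, with mouse 5 lowest in both at 44.3% and 49.9%. The ratio of summed metalloproteinase to summed inhibitor transcripts had a median of 1.11 (range 1.01 to 1.67) in rhodamine-positive and 1.42 (0.868 to 2.11) in rhodamine-negative libraries, and it was higher in the rhodamine-positive sort of 3 of 6 mice. These sums describe transcripts and say nothing of the amount or activity of protein.

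**Figure D3:**
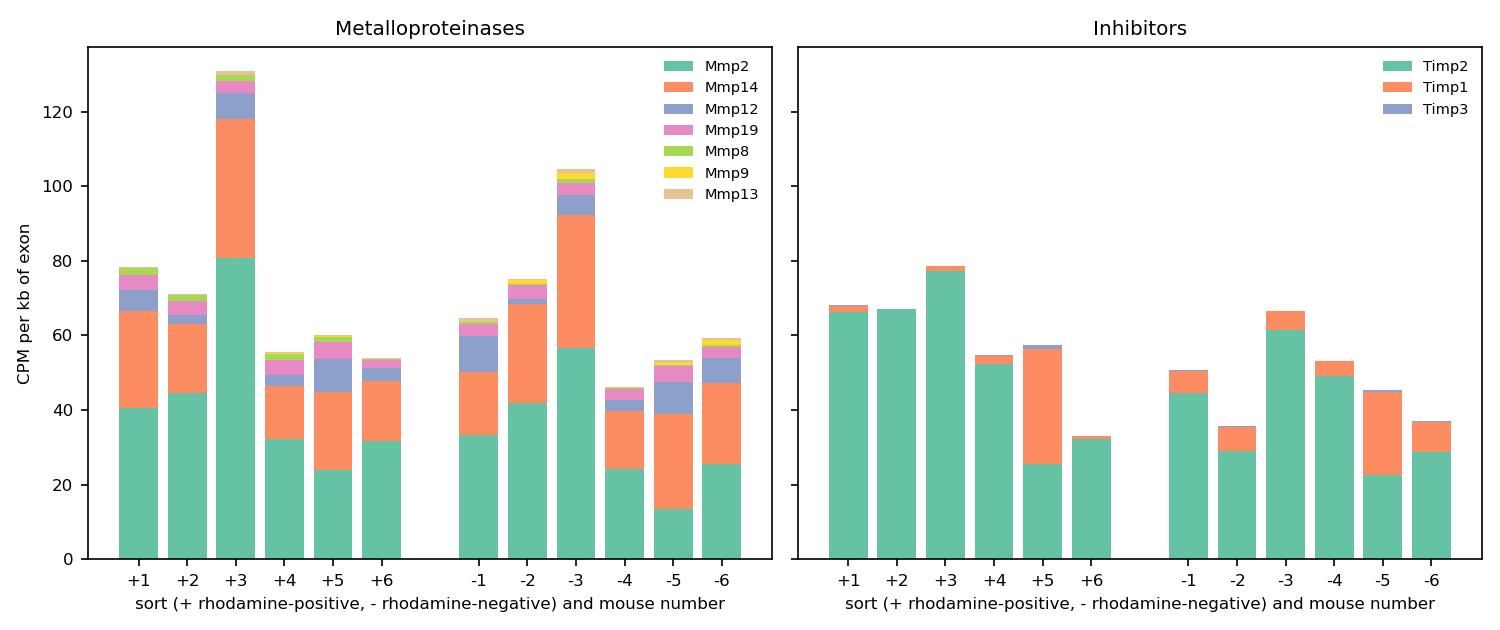
Stacked CPM per kb of exon of the 7 metalloproteinase genes (left) and the 3 inhibitor genes (right) in each library, with the 6 rhodamine-positive libraries to the left of the 6 rhodamine-negative ones in each panel and numbers giving the mouse. Mmp2 with Mmp14, and Timp2, make up most of the bars, except in mouse 5, where Timp2 is 44.3% of the inhibitors in the rhodamine-positive and 49.9% in the rhodamine-negative library.

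Mmp2 (ENSMUSG00000031740; mm10 chromosome 8, positions 92827291 to 92853420, plus strand) encodes gelatinase A, which cuts denatured collagen and the collagen of basement membranes. Its levels were 80.9, 123 and 272 CPM (lowest, median and highest) in rhodamine-positive and 45.1, 99.2 and 191 CPM in rhodamine-negative libraries. Mouse 3 was highest and mouse 5 lowest in both sorts, and the ranges of the groups overlapped. Within mice the rhodamine-positive sort was higher in 6 of 6, by 0.09 (mouse 2) to 0.84 (mouse 5) in log2 CPM. The fitted log2 fold change was 0.40 ± 0.10 (SE), or 1.32-fold (edgeR, adjusted p = 0.0114). The call rests on the pairing, since without the mouse as a block the value was 0.38 with adjusted p = 0.443.

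Timp2 (ENSMUSG00000017466; chromosome 11, positions 118301069 to 118355740, minus strand), the inhibitor that also docks the Mmp2 proenzyme, had 99.2, 231 and 301 CPM (lowest, median and highest) in rhodamine-positive and 88.2, 144 and 240 CPM in rhodamine-negative libraries. It too was higher in the rhodamine-positive sort of 6 of 6 mice, by 0.09 (mouse 4) to 1.20 (mouse 2) in log2 CPM. The fitted log2 fold change was 0.42 ± 0.13 (SE), or 1.34-fold (edgeR, adjusted p = 0.0366). Without the block it was 0.44 with adjusted p = 0.299, and leaving out mouse 1, 2, 3 or 6 ended the call (adjusted p = 0.0933, 0.0739, 0.0772 and 0.0517). The log2 fold change without mouse 2 was 0.26. When no TMM correction was made, the median log2 fold change over all genes was -0.18, and Mmp2 at 0.25 and Timp2 at 0.26 were not past the threshold (edgeR, adjusted p = 0.0719 and 0.168).

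Mmp14 (ENSMUSG00000000957; chromosome 14, positions 54431612 to 54445364, plus strand), which encodes the membrane-anchored protease of the complex, had 85.9, 118 and 222 CPM in rhodamine-positive and 92.7, 141 and 212 CPM in rhodamine-negative libraries. Mouse 3 was again highest in both sorts. Only mice 1 and 3 had more in the rhodamine-positive sort, and the log2 fold change of -0.11 ± 0.13 (SE) did not pass (edgeR, adjusted p = 0.565). Mmp2 and Timp2 were thus higher in 6 of 6 mice and Mmp14 in 2 of 6, and the difference between these genes was not tested.

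Mmp9 (ENSMUSG00000017737; chromosome 2, positions 164940780 to 164955850, plus strand) encodes gelatinase B, an inducible gelatinase made by neutrophils, macrophages and dendritic cells among others. It had 0, 0, 0, 10, 5 and 0 counts in the rhodamine-positive libraries of mice 1 to 6, and 10, 64, 82, 6, 30 and 85 counts in the rhodamine-negative ones. In CPM this is at most 0.736 in rhodamine-positive and 0.386 to 5.76, with a median of 2.91, in rhodamine-negative libraries. A count of 0 still allows up to 3 counts per library, or 0.179 to 0.238 CPM over the 12 libraries, an allowance for counting error only. The rhodamine-positive sort was lower in 5 of 6 mice, and mouse 4 went the other way at 0.736 against 0.386 CPM.

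The fitted log2 fold change of Mmp9 was -3.95 ± 1.03 (SE; edgeR, adjusted p = 0.0156), the largest in size among the 10 genes, and over all libraries 15 counts stood against 277. DESeq2 put it at -6.10. The call was lost without mouse 3 or 6 (adjusted p = 0.0548 and 0.0538) and in male mice alone (adjusted p = 0.0785), and without mouse 2 the gene fell below the filter. Among neutrophil markers the receptor gene Csf3r was highest, at 318 ± 61.1 and 289 ± 71.3 CPM (SD, n = 6 each). With it, the summed list was higher in the rhodamine-positive sort of 4 of 6 mice. The markers other than Csf3r, a subset formed after the values were seen, summed to 1.94 to 5.71 against 5.17 to 27.8 CPM. This smaller sum was lower in the rhodamine-positive sort of 6 of 6 mice. Its most abundant gene was Cxcr2, with 102 counts over the rhodamine-positive and 633 over the rhodamine-negative libraries. In rhodamine-negative libraries Cxcr2 gave 20.2 of the 27.8 CPM in mouse 5 and 4.21 of the 5.17 CPM in mouse 2. The sum apart from Cxcr2 was not tested. Ly6g, the defining neutrophil surface gene, had 1 count over all 12 libraries. Among rhodamine-negative libraries, that of mouse 4 had the fewest Mmp9 counts and the lowest summed dendritic cell and basophil markers, at 393 and 6.68 CPM, but that of mouse 5 had the highest of both, at 1457 and 443 CPM, with 30 Mmp9 counts. The part of these cells in the Mmp9 difference was not tested.

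Mmp8 (ENSMUSG00000005800; chromosome 9, positions 7558456 to 7568485, plus strand) encodes collagenase 2, known as the collagenase of neutrophil granules. It was a low-level transcript, with 69, 62, 53, 53, 45 and 6 counts in the rhodamine-positive libraries of mice 1 to 6 and 17, 9, 39, 13, 9 and 20 counts in the rhodamine-negative ones. In CPM the lowest, median and highest were 0.476, 3.88 and 4.61 in rhodamine-positive and 0.542, 0.995 and 2.74 in rhodamine-negative libraries. The rhodamine-positive libraries of mice 1 to 5 lay above every rhodamine-negative one, and that of mouse 6 lay below all of them. The log2 fold change was 1.52 ± 0.48 (SE), or 2.87-fold (edgeR, adjusted p = 0.0363), with mice 1 to 5 higher and mouse 6 lower. The call was lost when any of mice 1 to 5 was left out (adjusted p = 0.0507 to 0.1003) and with library size alone (1.36, adjusted p = 0.0570), and without mouse 6 it was 1.96 (adjusted p = 0.00659). Beside this, the other granule genes of the neutrophil list, named after their values were seen, had few counts over the 6 rhodamine-positive and the 6 rhodamine-negative libraries. Ltf had 32 against 85, Ngp 2 against 69, Mpo 20 against 45, Camp 2 against 17 and Elane 8 against 1 counts. The part of neutrophils in the Mmp8 difference was not tested.

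Mmp8 belongs to a cluster of 10 metalloproteinase genes, 9 of them annotated as protein-coding and Mmp1a as a polymorphic pseudogene, that span 427.1 kb on chromosome 9, positions 7272514 to 7699585, in the mm10 annotation. The cluster also holds Mmp12 and Mmp13. The gene beside Mmp8, Mmp27, begins 2910 bases after the end of Mmp8 on the same strand. It had 38, 28, 32, 51, 20 and 12 counts in the rhodamine-positive libraries of mice 1 to 6, against 10, 6, 8, 2, 8 and 4 counts in the rhodamine-negative ones, and its groups did not overlap. Its log2 fold change was 2.30 ± 0.45 (SE), or 4.94-fold (edgeR, adjusted p = 0.00349), and it was higher in 6 of 6 mice. Mmp27 had only 219 counts over all 12 libraries, so depth limits this value. With 10 counts or fewer in each rhodamine-negative library, it passed the filter through the rhodamine-positive sort. Mmp10, on the other side of Mmp8, did not reach the filter, and its counts lay the opposite way, with 11 over the 6 rhodamine-positive and 128 over the 6 rhodamine-negative libraries, 70 of them in that of mouse 3. Mmp1b, Mmp3, Mmp7 and Mmp20 had 2, 42, 32 and 6 counts over all 12 libraries, and Mmp1a had 0.

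**Figure D4:**
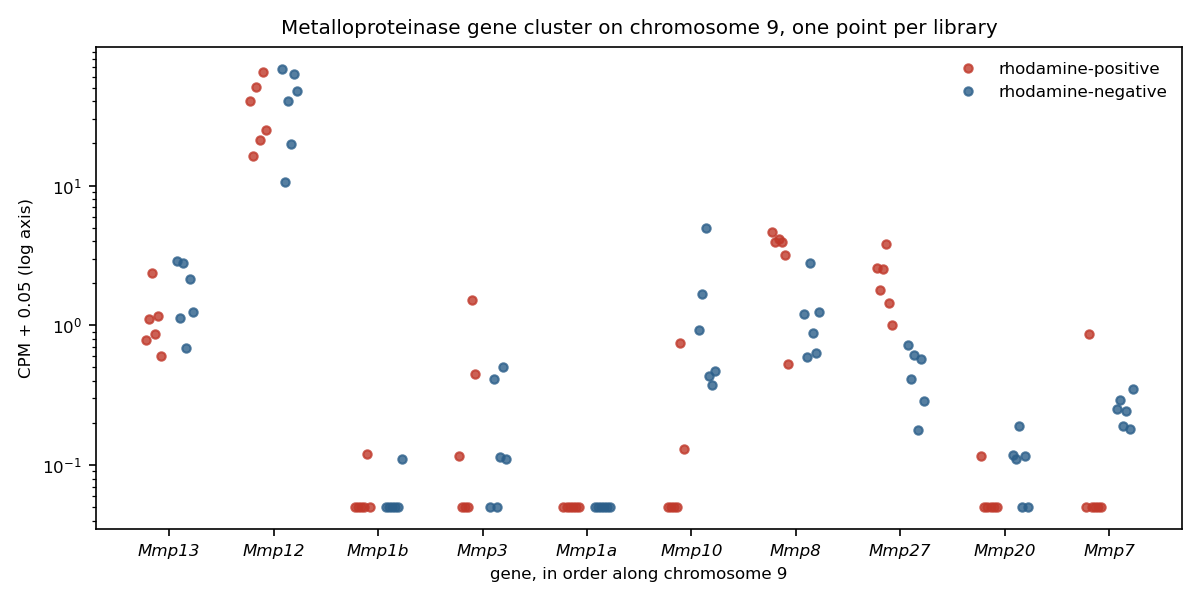
TMM-scaled CPM (with 0.05 added, log axis) of the 10 metalloproteinase genes of the chromosome 9 cluster in their order along the chromosome, 1 point per library, with rhodamine-positive libraries left of rhodamine-negative ones. Mmp8 and Mmp27 lie higher in the rhodamine-positive libraries, apart from Mmp8 in mouse 6 at 0.476 CPM, while Mmp12, the most abundant, overlaps between the sorts.

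Promoter sequences are shown for the neighbours Mmp8 and Mmp27, which were both higher, for Mmp13 of the same cluster, which did not pass the test, and for the inhibitors Timp1 and Timp2, which moved in opposite directions. Each is the RefSeq sequence of build GRCm38.p6 from 250 bases before the gene's start to 30 bases after it, 5′ to 3′ on the gene's strand. Capitals mark the letters TGANTCA of the AP-1 element and the letters TATAAA of the TATA box, each searched on both strands with no overlap between the matches.
Mmp8 (chr9:7558179-7558458, plus strand): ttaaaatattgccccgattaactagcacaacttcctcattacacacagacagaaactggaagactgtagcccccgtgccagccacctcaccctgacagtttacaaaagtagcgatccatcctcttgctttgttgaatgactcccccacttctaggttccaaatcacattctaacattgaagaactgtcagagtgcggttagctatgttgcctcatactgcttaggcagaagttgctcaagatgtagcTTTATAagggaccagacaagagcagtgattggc
Mmp27 (chr9:7571146-7571425, plus strand): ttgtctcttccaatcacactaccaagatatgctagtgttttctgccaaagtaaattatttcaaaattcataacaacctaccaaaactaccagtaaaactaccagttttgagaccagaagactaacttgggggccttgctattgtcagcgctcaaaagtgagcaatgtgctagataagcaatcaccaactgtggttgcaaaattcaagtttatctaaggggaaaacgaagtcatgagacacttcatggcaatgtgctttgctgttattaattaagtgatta
Mmp13 (chr9:7272264-7272543, plus strand): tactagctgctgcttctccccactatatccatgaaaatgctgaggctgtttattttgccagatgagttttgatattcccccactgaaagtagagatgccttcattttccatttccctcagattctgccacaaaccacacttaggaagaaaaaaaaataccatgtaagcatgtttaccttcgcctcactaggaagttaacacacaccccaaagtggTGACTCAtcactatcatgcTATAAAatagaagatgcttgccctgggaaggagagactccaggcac
Timp1 (chrX:20869916-20870195, plus strand): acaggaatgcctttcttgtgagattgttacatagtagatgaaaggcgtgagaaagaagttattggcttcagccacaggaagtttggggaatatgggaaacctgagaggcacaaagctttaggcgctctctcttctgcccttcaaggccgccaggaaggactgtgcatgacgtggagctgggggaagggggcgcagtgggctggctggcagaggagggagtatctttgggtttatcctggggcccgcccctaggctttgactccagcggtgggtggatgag
Timp2 (chr11:118355382-118355661, minus strand): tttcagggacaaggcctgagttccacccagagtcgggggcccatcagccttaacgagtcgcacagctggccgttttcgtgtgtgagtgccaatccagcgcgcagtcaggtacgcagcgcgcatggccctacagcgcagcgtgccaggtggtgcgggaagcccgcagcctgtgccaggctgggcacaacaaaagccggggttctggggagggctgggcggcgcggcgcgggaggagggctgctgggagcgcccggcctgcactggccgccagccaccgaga

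The AP-1 letters occurred in 7.46% and the TATA letters in 13.1% of the 32851 mouse promoter windows of this length. Mmp13 held both, 35 and 16 bases before its start, and in Mmp8 the TATA letters stood on the opposite strand. The windows of Mmp27, Timp1 and Timp2 held neither. Timp2 was rich in G and C at 68.9%, Timp1 had 55.0%, Mmp8 45.4%, Mmp13 42.9% and Mmp27 37.5%, against a median of 52.5% over all windows. Mmp12 had 2 windows, of which 1 held both motifs and 1 held neither. Mmp3 and Mmp10 of the same cluster also held both. Windows were matched for 7 of the 10 genes, not for Mmp2, Mmp9 and Mmp19. These matches describe the sequence only.

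Mmp12 (ENSMUSG00000049723; chromosome 9, positions 7344381 to 7369499, plus strand) encodes macrophage elastase, an enzyme named for the cell that makes it. It had 16.2, 32.6 and 64.4 CPM (lowest, median and highest) in rhodamine-positive and 10.6, 43.5 and 68.2 CPM in rhodamine-negative libraries. It was higher in the rhodamine-positive sort of mice 2 to 5, by 0.04 to 0.60 in log2 CPM, and lower in mice 1 and 6, with differences of -0.76 and -0.92. The log2 fold change was -0.11 ± 0.18 (SE) and did not pass (edgeR, adjusted p = 0.701), and its sign turned in male mice alone (0.05).

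Mmp13 (ENSMUSG00000050578; chromosome 9, positions 7272514 to 7283331, plus strand), which encodes collagenase 3, had 0.556, 0.935 and 2.33 CPM in rhodamine-positive and 0.643, 1.64 and 2.85 CPM in rhodamine-negative libraries. It was lower in the rhodamine-positive sort of 5 of 6 mice, with a log2 fold change of -0.65 ± 0.38 (SE) that did not pass (edgeR, adjusted p = 0.227). It had 92 counts over the rhodamine-positive and 161 over the rhodamine-negative libraries.

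Mmp19 (ENSMUSG00000025355; chromosome 10, positions 128790910 to 128800824, plus strand), a metalloproteinase known in humans from inflamed joint tissue, varied least among the 10 over the 12 libraries. It had 7.78, 13.7 and 16.1 CPM in rhodamine-positive and 10.4, 11.3 and 15.02 CPM in rhodamine-negative libraries. The rhodamine-positive sort was higher in 5 of 6 mice by at most 0.42 in log2 CPM, and in mouse 6 the difference was -0.50. The log2 fold change of 0.09 ± 0.15 (SE) did not pass (edgeR, adjusted p = 0.706) and was -0.08 with library size alone. Its exons overlap those of Tmem198b on the other strand over 789 bases, and the strand setting of the counting is not given, so reads of that stretch cannot be assigned with certainty.

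Timp1 (ENSMUSG00000001131; chromosome X, positions 20870166 to 20874735, plus strand) encodes the inducible inhibitor that also binds the Mmp9 proenzyme. It had 19, 0, 15, 27, 395 and 8 counts in the rhodamine-positive libraries of mice 1 to 6, and 78, 94, 64, 56, 301 and 119 counts in the rhodamine-negative ones. Outside mouse 5, the rhodamine-positive libraries lay at 0 to 1.99 CPM and the rhodamine-negative ones at 3.60 to 7.10 CPM. Mouse 5 stood far above both at 27.4 CPM in its rhodamine-positive and 19.7 CPM in its rhodamine-negative library, and it alone was higher in the rhodamine-positive sort.

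The fitted log2 fold change of Timp1 was -1.84 ± 0.59 (SE; edgeR, adjusted p = 0.0390). Without mouse 5 it was -2.54 (adjusted p = 0.0103), and the call was lost when mouse 1, 2, 3 or 6 was left out (adjusted p = 0.0900, 0.0566, 0.0906 and 0.115). Without the block it was -0.49 (adjusted p = 0.749), and limma-voom with the block gave -0.70 (adjusted p = 0.359). Mouse 5 also had the highest summed fibroblast and pericyte markers in both sorts, at 25.8 CPM in its rhodamine-positive and 28.7 CPM in its rhodamine-negative library, against medians of 2.00 and 3.75 CPM. The rhodamine-positive library of mouse 4 had 19.95 CPM of these markers and 1.99 CPM of Timp1. The 2 sums shared some genes, such as Acta2 (3.17 CPM in mouse 4 and 4.71 CPM in mouse 5) and Col1a1 (1.77 and 3.67 CPM), but differed in their highest gene. In the rhodamine-positive library of mouse 4 the highest was Pdgfrb at 9.13 CPM, with Col3a1 at 0. In that of mouse 5 the highest was Col3a1 at 6.86 CPM, with Pdgfrb at 1.11 CPM. Mouse 5 was also highest in both sorts for the summed dendritic cell, basophil and monocyte markers. The part of these cells in the Timp1 level was not tested.

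Timp3 (ENSMUSG00000020044; chromosome 10, positions 86300372 to 86349506, plus strand) encodes an inhibitor that binds to the matrix and also blocks ADAM17, a protease that sheds cell surface proteins. It had 29, 7, 3, 37, 137 and 17 counts in the rhodamine-positive libraries of mice 1 to 6, and 14, 27, 9, 16, 78 and 43 counts in the rhodamine-negative ones. As with Timp1, mouse 5 was highest in both sorts, at 9.49 CPM in the rhodamine-positive and 5.09 CPM in the rhodamine-negative library. Mice 1, 4 and 5 were higher and mice 2, 3 and 6 lower in the rhodamine-positive sort, and the log2 fold change of 0.03 ± 0.49 (SE) did not pass (edgeR, adjusted p = 0.974) and had the opposite sign with library size alone (-0.13). Timp3 lies inside Syn3 on the other strand, with 1733 bases of exon shared, so its counts carry the same uncertainty as those of Mmp19. Syn3 had 472 counts over all libraries and Timp3 417.

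In a test of whether the difference between sorts differed between the 2 female and the 4 male mice, the smallest adjusted p among the 10 genes was 0.701 (edgeR, Mmp14, -0.38 ± 0.26 SE on the log2 scale, 2 female mice lower and male mice in both directions). With 2 female mice this test has little power.

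For the related lists that follow, the shares over all genes tested were 13.0% called higher and 13.2% called lower, with a median log2 fold change of -0.02. Of 16 other metalloproteinase genes, 8 passed the filter, 3 of which rose and 2 fell, with a median log2 fold change of -0.22 among those tested. Besides Mmp27, Mmp11, which encodes stromelysin 3, was higher at 5.37, 9.46 and 10.7 CPM (lowest, median and highest) in rhodamine-positive against 3.49, 3.96 and 6.08 CPM in rhodamine-negative libraries, or 1.96-fold (edgeR, adjusted p = 0.00194, 6 of 6 mice). Mmp24, a membrane-type metalloproteinase, rose 1.32-fold (adjusted p = 0.0397, 6 of 6 mice). Mmp25, a membrane-type metalloproteinase of leukocytes, fell to 3.24, 5.40 and 10.5 CPM in rhodamine-positive libraries, against 8.16, 12.03 and 45.9 CPM in rhodamine-negative ones, a log2 fold change of -1.45 ± 0.19 (SE; edgeR, adjusted p = 0.000354, lower in 6 of 6 mice). Mmp15, also of the membrane type and named after its value was seen, fell by 1.34 ± 0.45 (SE) on the log2 scale at 65 against 153 counts in all (adjusted p = 0.0453). Mmp1a was at 0 in all 12 libraries. Of 4 other inhibitor genes, Timp4 and Reck were tested and neither passed.

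Of 22 ADAM and ADAMTS genes, whose products shed membrane proteins or cut matrix proteoglycans, 12 were tested. Of these 12, 5 rose and 2 fell, with a median of 0.23, against 13.0% higher and 13.2% lower over all genes tested. Adam9, a shedding protease with the smallest p of the list, rose, with 171 ± 20.8 CPM in rhodamine-positive and 108 ± 9.58 CPM in rhodamine-negative libraries (SD, n = 6 each; log2 fold change 0.66, edgeR adjusted p = 0.000386), and the groups did not overlap. Adam8, a protease of leukocytes, rose by 0.58 (adjusted p = 0.00224), and Adam19 and Adamts10 fell by 2.00 and 0.66 (adjusted p = 0.00120 and 0.00758). Of 11 genes of the plasminogen system, which feeds the activation of several proenzymes, 9 were tested with a median of -0.23, and only S100a10 passed. S100a10, whose product forms a plasminogen-binding pair with annexin A2, fell by 1.51 ± 0.14 (SE; adjusted p = 3.16e-05). Plau and its receptor gene Plaur differed by 0.21 ± 0.19 and -0.24 ± 0.11 (SE) and did not pass.

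Of 12 genes for activators, partners and inducers of metalloproteinases, 8 were tested with a median of 0.10; Bsg, which encodes the inducer EMMPRIN, rose by 0.56 ± 0.09 (SE; edgeR, adjusted p = 0.00140), and Tgfb1 fell by 0.54 ± 0.13 (adjusted p = 0.0115). Of 26 matrix and basement membrane genes, 16 were tested with a median of -0.04. Of these 16, 3 rose and 1 fell, against 13.0% higher and 13.2% lower over all genes tested. The laminin chain genes Lamc1 and Lamb2 rose by 1.17 ± 0.23 and 0.71 ± 0.20, and Thbs1, which encodes thrombospondin 1, rose by 0.59 ± 0.18. Bcan, a proteoglycan gene of the glial lineage, fell by 1.34 ± 0.42, beside the glioma and oligodendrocyte markers that were lower in the same sorts. Fibrillar collagen transcripts were scarce, with 209, 198 and 429 counts of Col1a1, Col1a2 and Col3a1 over all 12 libraries.

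Profiles over the 12 libraries were compared with those of 8631 other genes by the root mean square difference of centred log2 CPM, as a description. The nearest to Mmp2 were Apoe and Cst7, at 0.27 and 0.30, where the spread of Mmp2 itself was 0.64. The nearest to Timp2 were Gnas and Rad21 (0.20 each, spread 0.59), and to Mmp14 Fam234b and Mdfic (0.23 and 0.25, spread 0.43). Mmp12 had Tarm1 and Gatm as its nearest (0.38 and 0.50, spread 0.84), and Mmp19 had Lin54 and Slc25a32 (0.13 and 0.14, spread 0.28). The profiles of the other 5 genes lay farther from their nearest genes on this scale. Mmp9 lay 1.08 from both Trp53i11 and Ciita (spread 2.04), Timp1 1.00 from Ahnak and 1.16 from Cish (spread 2.00), Mmp8 0.61 from Htr2b and 0.66 from Nlrc3 (spread 1.11), Timp3 0.75 from Clu and 0.78 from Slc4a8 (spread 1.27), and Mmp13 0.48 from Zfp609 (spread 0.71).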

How the data were processed

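Per the labels, the count table, 12 count files and log2 table come from polyadenylated RNA of sorted TAMs sequenced on an Illumina HiSeq. The authors deposited raw read counts per gene, and all 12 count files equal the table. Their deposited log2 table (10605 genes, log2 normalized values) was used in 1 alternative. The submitters' processing notes list HISAT2 2.1.0, featureCounts 1.4.4, bcl2fastq 2.17, limma, edgeR, cutadapt and the build mm10; their roles and the strand setting are not given in the sources used here. All libraries carry the same batch label.

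Genes were kept by edgeR's filterByExpr by sort (minimum count 10, minimum total 15), which left 15014 genes with 99.8% of counts. Tests used edgeR 4.0.16 in R 4.3.3 with TMM scaling and the mouse as a block. An SE is the absolute log2 fold change over the square root of F. Log2 CPM used a prior count of 2. TMM factors were 0.923 to 0.980 in rhodamine-positive and 1.02 to 1.15 in rhodamine-negative libraries (exact two-sided sign-flip p = 0.0312). Exonic lengths and coordinates are from GENCODE vM21 (mm10), which held 54495 of the 54532 IDs.

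Pairing comes from the series text, by which each mouse gave both sorts, so the replicate numbers pair the libraries. Deviations from the group means correlated across genes within mice 1 to 6 at 0.226, 0.207, 0.289, 0.0775, 0.302 and 0.450, and mouse 4 lay below the highest value between different mice, 0.187. No library was a copy of another (lowest chi-square per degree of freedom within a group 17.5). On simulated counts for this comparison over 15014 genes, the test recovered 26% of 100 genes with a log2 change of 0.5 and 75% of 100 with a change of 1, with 4 false among 105 calls. No other gene was changed, and the changed genes all had a mean above 1 CPM. In the data 26.2% of genes were called, so these recovered shares do not give the power of the real test.

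The 10 genes and all lists were chosen with earlier results of these data known. Named genes are the 10, up to 4 called genes of each related list by smallest p, those at 0 throughout, the most abundant marker of each cell type list, Ptprc, Itgam and Ly6c2 for the gate, and for each of the 10 the 2 genes nearest in profile whose mean log2 CPM was 3 or more. Other genes were named after their values were seen. A marker list and a nearest gene are not reported here. The p-values of the main test rest on the spread of the differences between sorts within these 6 mice, estimated partly across genes. Alternatives were no block, DESeq2 1.42.0, limma-voom and limma 3.58.1 on the log2 table, other scalings and filters, the male mice only, and leaving out each mouse in turn.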

Additional observations from a re-analysis of the deposited data

Results flagged for a closer look

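Of 30 sets of 6 values (the CPM of the 10 genes in each sort and their log2 differences between sorts), 7 held an outlying library. Its gap to its nearest neighbour, as a share of the range of the set, was above Dixon's 95% critical value for 6 samples. Chance gives this in about 1 of 20 sets of normally distributed values, but CPM were not put on a log scale here. All 7 were sets of CPM and none was a set of log2 differences. In rhodamine-positive libraries these were Mmp2 (272 CPM) and Mmp13 (2.33 CPM) in mouse 3, Mmp8 in mouse 6 (0.476 CPM), and Timp1 (27.4 CPM) and Timp3 (9.49 CPM) in mouse 5. In rhodamine-negative libraries they were Mmp8 in mouse 3 (2.74 CPM) and Timp1 in mouse 5 (19.7 CPM). Timp1 in mouse 5 stood apart in both sorts.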

How the results depend on the processing

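Of the 10 genes, 3 were called higher and 2 lower. Without the block they were 1 and 1, with library size alone 0 higher, with limma-voom, a minimum count of 50 or male mice alone 1 lower, and without each mouse in turn 1 to 2 higher and 0 to 2 lower. Over all genes, 1955 were higher and 1986 lower; the count higher was 1270 without the block, the split was 852 higher and 3142 lower with library size alone and 1005 and 1222 in male mice alone, and leaving out each mouse gave 1257 to 1780 higher and 1421 to 1820 lower. Values on the log2 scale that no longer passed were, without the block, Mmp2 0.38, Timp1 -0.49 and Timp2 0.44; with library size alone, Mmp2 0.25, Mmp8 1.36 and Timp2 0.26; in male mice alone, Mmp2 0.31 and Mmp9 -3.97; and with limma-voom, Timp1 -0.70. Mmp8 and Mmp9 passed without the block. Among the 10 genes, leaving out the block changed no other call. Signs turned for genes that had not passed: in male mice alone Mmp12 (0.0465), Mmp14 (0.0069) and Timp3 (-0.0534), with library size alone Mmp19 (-0.0754) and Timp3 (-0.13), and with DESeq2 Timp3 (-0.0324). Leaving out each mouse gave 0.33 to 0.47 for Mmp2, 1.27 to 1.96 for Mmp8, -5.43 to -3.42 for Mmp9, -2.54 to -1.36 for Timp1, 0.26 to 0.49 for Timp2, -0.24 to 0.0565 for Mmp12 and -0.26 to 0.38 for Timp3. No value was had for Mmp8, Mmp9, Mmp13 and Timp3 at a minimum count of 50, for Timp3 in the log2 table, or for Mmp9 without mouse 2. The causes were not tested. Depth limits Mmp8, Mmp9, Mmp13 and Timp3, at 253 to 417 counts each over 12 libraries, and also the neighbour gene Mmp27, at 219.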
